A study of Mus musculus with 8 samples.

Results

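The tripartite motif (Trim) proteins are a large family of mouse genes, described here in bone marrow-derived myeloid cells that had entered the brain after an experimental stroke. Members were taken by name, as every gene probe whose symbol, or the gene of its RefSeq accession, was Trim followed by a digit. This gave 105 probes for 68 genes, out of 60273 gene probes with 47242 distinct names on the array. Of the 68 genes, 41 had 1 probe and 27 had several, with up to 3. The family itself was selected on measured values, since Trim34b had shown a large difference between the groups of the same comparison, so these differences are given as a description and are not used as support.

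The cells came from chimeras, in which bone marrow carrying the red fluorescent protein DsRed was placed in wild-type hosts. The 4 samples labelled Psgl1-/- carried marrow that lacks Selplg, the gene of the selectin ligand PSGL-1, and the 4 labelled Psgl1+/+ carried wild-type marrow. In all 8 the middle cerebral artery had been closed for 30 min, blood flow was restored, and living DsRed+ CD11b+ Ly6G- CD3- CD45hi cells were sorted from the ischemic brain on day 7. The hosts keep their own brain cells, and the labels give neither the age of the mice nor how many animals made up a sample, so the spread between arrays may be in part technical.

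A Trim protein joins a RING finger, usually a ubiquitin ligase, to B-box zinc fingers and a coiled coil, and its last part chooses the target. Many members end in a B30.2 domain and act in innate immunity, where interferon raises their transcription in leukocytes and they tag viral capsids, RNA sensors or adaptors of NF-kB signalling. Others end in NHL repeats, a COS box that binds microtubules, or a PHD finger and bromodomain that read chromatin.

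Each array gave 1 cyanine 3 intensity per spot. Signals are given here as log2 intensity after each array was set to the same 75th percentile, and differences as Psgl1-/- minus Psgl1+/+ on that scale. Between 76.1% and 88.2% of gene spots on an array were well above background. All 12 markers of the sorted myeloid cells, Ptprc, Itgam and Csf1r among them, were above background on all 8 arrays, and their mean log2 signal per array was 10.98 to 13.07 in Psgl1-/- arrays and 10.92 to 12.51 in Psgl1+/+ arrays. Markers of cells outside the gate were also mostly above background on all 8 arrays, so detection alone did not separate cell types. These were 6 of the 7 T cell markers and 5 of the 6 neuronal markers on the array. The remaining neuronal marker was not tested. The targeted gene had 1 probe, which read 13.25, 13.45, 13.16 and 12.88 in Psgl1-/- arrays, against 13.79, 12.68, 13.05 and 15.74 in Psgl1+/+ arrays. These groups overlapped, and the sources used here do not say whether this probe lies in the deleted stretch, so Selplg did not check the labels and each array is named by its label throughout. In sorted cells, fewer cells of a type and less RNA per cell cannot be told apart.

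With 1 probe standing for each gene, Trim34a and Trim34b had the largest differences in the family, both lower in Psgl1-/- arrays. Trim34a and Trim34b are copies of an interferon-induced gene, and human TRIM34 works beside TRIM5 against the capsids of some lentiviruses. The probes are shown because the rest of the description turns on what they read. Trim34a is given by the first 30 of its 50 bases and Trim34b by all 53. Both genes lie on chromosome 7.
Trim34a: cctgagttttctcattctcatccgtttctg
Trim34b: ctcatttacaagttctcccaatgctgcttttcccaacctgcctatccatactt
Neither shares a run of 18 bases with a probe of any other gene name. The accessions listed for the Trim34b probe name Trim34a as well as Trim34b, so it cannot be assigned to 1 of the copies, while the Trim34a probe lists Trim34a alone.

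Trim34a read 8.95, 4.92, 8.52 and 8.70 in Psgl1-/- arrays, against 13.51, 11.49, 12.20 and 13.34 in Psgl1+/+ arrays. Every Psgl1-/- array lay below every Psgl1+/+ array, and replicate 6 stood far below the other Psgl1-/- arrays. The difference was -4.86 (SE 0.97, n = 4 per group), or 29.1-fold lower in Psgl1-/- cells. Without replicate 6 it was -3.91.

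Trim34b read 9.23, 7.95, 8.26 and 8.71 in Psgl1-/- arrays, against 13.51, 11.62, 11.61 and 13.35 in Psgl1+/+ arrays. The groups were again apart, with Psgl1+/+ replicates 1 and 4 high on both probes. The difference was -3.98 (SE 0.56, n = 4 per group), or 15.8-fold lower in Psgl1-/- cells. Both probes were well above background on all 8 arrays.

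In limma's fit across all 42434 tested genes, the adjusted p was 0.458 for Trim34a and 0.221 for Trim34b, so neither passed 0.05. Within slide row 1 the differences were -5.60 for Trim34a and -4.16 for Trim34b, and within row 2 they were -4.12 and -3.81. Each row held arrays of both groups, whereas slide columns each held a single group and cannot be told apart from it.

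Another probe, whose predicted accession names Trim34a but which is no member by the rule, gave another picture. It read 7.53, 8.09, 7.77 and 7.86 in Psgl1-/- arrays, against 8.22, 7.19, 7.68 and 8.46 in Psgl1+/+ arrays. The groups overlapped, with a difference of -0.07 (SE 0.34, n = 4 per group), although the probe was above background on all 8 arrays. Lower signal without overlap was thus read by 2 of the 3 probes that list Trim34a.

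**Figure D1:**
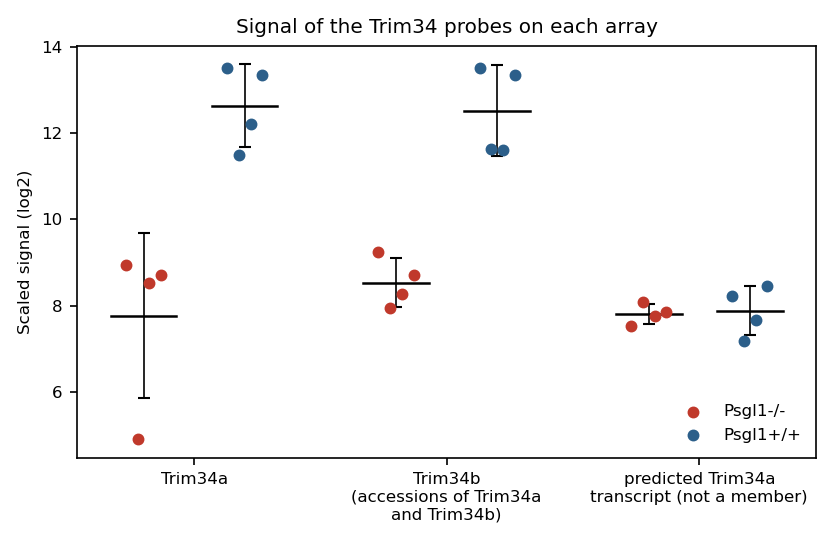
Scaled log2 signal (vertical axis) of the Trim34a probe, the Trim34b probe and the predicted Trim34a transcript's probe on each array, with Psgl1-/- arrays left of Psgl1+/+ arrays. Points are arrays, bars are means and whiskers are SD (n = 4). The first 2 probes separate the groups and the predicted transcript's probe does not. Levels of different probes are not comparable.

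Trim34a and Trim34b sit in a cluster on chromosome 7 that arose by gene duplication and in which rodents carry several copies of Trim5-like genes. In the order of the RefSeq annotation, the tested members are Trim6, Trim34a, Trim5, Trim12a, Trim34b, Trim12c, Trim30b, Trim30a, Trim30d and the pseudogene Trim30e-ps1. All 10 were tested, of which 3 were higher and 7 lower in Psgl1-/- arrays, with a median difference of -0.72.

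Trim5 and Trim12a are the Trim genes between the Trim34 copies. Trim5's human counterpart binds incoming retroviral capsids. Trim5 read 6.44, 5.27, 4.68 and 7.10 in Psgl1-/- arrays, against 5.81, 5.98, 5.98 and 6.25 in Psgl1+/+ arrays. These values overlapped, with a difference of -0.13 (SE 0.53, n = 4 per group).

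Trim12a read 9.57, 11.12, 8.65 and 8.03 in Psgl1-/- arrays, against 10.01, 10.16, 12.17 and 8.38 in Psgl1+/+ arrays. The groups overlapped, and its 3 probes gave -0.84, -0.93 and -0.44. Without Psgl1+/+ replicate 3 the first of these was -0.18. Trim6, whose human protein builds free ubiquitin chains for the kinase IKKε, had 1 high array, Psgl1+/+ replicate 4, at 14.93. Its difference was -0.77 with that array and 0.63 without it.

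The Trim30 genes include Trim30a, which in mouse brakes Toll-like receptor signalling by removing TAB2 and TAB3. Trim30a read 9.38, 11.50, 13.73 and 12.74 in Psgl1-/- arrays, against 8.33, 12.74, 10.36 and 12.19 in Psgl1+/+ arrays. The groups overlapped, with a difference of 0.93 (SE 1.23, n = 4 per group), and its other 2 probes gave -0.12 and -0.46. Without Psgl1+/+ replicate 1 it was 0.07. Trim30b differed by 0.87 and Trim30e-ps1 by 0.30, both with overlapping groups. The accessions of the Trim30b probe also name the neighbouring gene Gm38525, so it cannot be assigned to Trim30b alone. The Trim30e-ps1 probe was above background on 5 of 8 arrays.

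Trim30d was read by a probe, shown here because its accessions name Trim30a too, from chromosome 7.
Trim30d: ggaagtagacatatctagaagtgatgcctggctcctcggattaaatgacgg
This probe read 6.76, 12.90, 13.63 and 12.15 in Psgl1-/- arrays, against 12.45, 10.88, 13.48 and 13.54 in Psgl1+/+ arrays. Psgl1-/- replicate 5 alone was low, and the difference of -1.23 became 0.31 without it. The other 2 Trim30d probes were on the positive side, at 1.70 (SE 2.43) and 3.25 (SE 1.99), both with overlap. Between Trim6 and Trim30e-ps1 the annotation holds 11 other genes. Among them is Trim30c, a Trim gene that had no probe by the rule and so was not measured. Of the 11, 2 were tested. These were the lncRNA Gm15133, at -0.49, and the protein-coding gene Gm38525, at 1.08, both with overlapping groups.

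**Figure D2:**
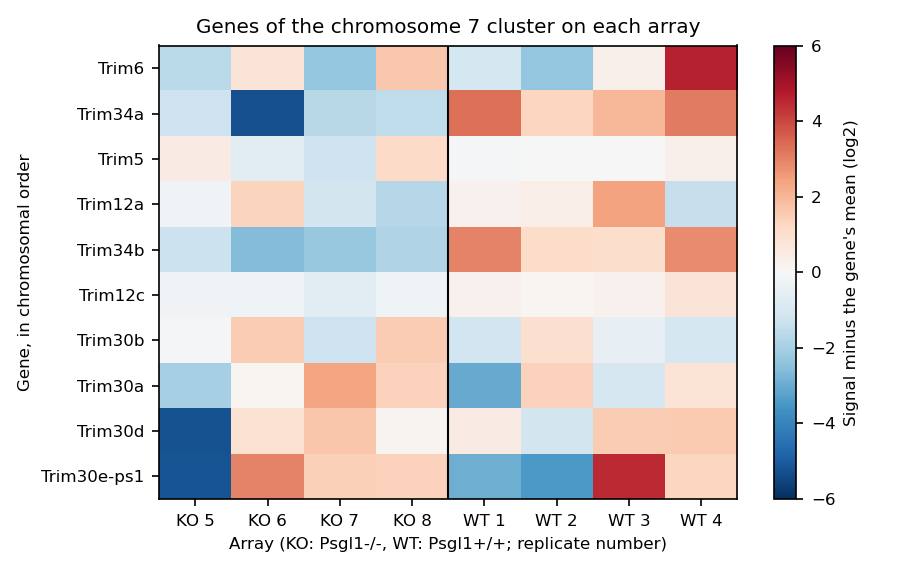
Log2 signal of each tested gene of the chromosome 7 cluster (rows, in chromosomal order) on each array (columns, Psgl1-/- arrays left of Psgl1+/+ arrays), minus that gene's mean over the 8 arrays (colour). Trim34a and Trim34b are below their means on the Psgl1-/- side and above them on the Psgl1+/+ side, while Trim5 and Trim12a between them show no such split.

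Over the whole family, all 68 genes were tested, since each had a probe above background on at least 4 arrays, and 52 had that probe above background on all 8. None passed an adjusted p of 0.05 in limma, beside 0.00236% of all tested genes. Differences were positive for 19 genes and negative for 49, with a median of -0.41, against a median of -0.33 over all tested genes. Of all tested genes, 13174 differed positively and 29260 negatively, so 31.0% were positive, beside 27.9% of the family. Every count of higher and lower genes in a list of this text is to be read beside that share. Without overlap between the groups, 12 Trim genes were lower in Psgl1-/- arrays, or 17.6% of the family, where 10.8% of all tested genes were. None was higher, where 0.648% of all tested genes were. The unadjusted limma p was under 0.05 for 7 lower members and 0 higher ones, where 9.21% of all tested genes were lower and 1.62% higher.

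The 10 genes lower without overlap apart from Trim34a and Trim34b were Trim16, Trim25, Trim12c, Trim67, Trim71, Trim54, Trim72, Trim46, Trim24 and Trim59. Their differences were small, between -0.93 and -0.38. Their spread between arrays was small too, since all 10 had a pooled SD below the median of 0.76 over all tested genes, where the family's median was 0.86. The 75th percentile used for scaling itself separated the groups, at 833 to 959 in Psgl1-/- arrays against 526 to 749 in Psgl1+/+ arrays. Scaling thus lowered every Psgl1-/- array relative to every Psgl1+/+ array. What this contributed to such small differences was not tested. After cyclic loess, which moved the median difference of all genes to -0.01, only Trim12c, Trim34a and Trim34b of the 12 kept groups apart, or 4.41% of the family beside 2.56% of all genes. After quantile normalization 5 kept groups apart, namely Trim25, Trim34a, Trim34b, Trim67 and Trim72, or 7.35% beside 5.31%. Array median scaling left 7 (10.3% beside 6.19%), the authors' deposited values left 5 (7.35% beside 5.21%), and normexp with quantile normalization only Trim34a and Trim34b (2.94% beside 5.15%).

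**Figure D3:**
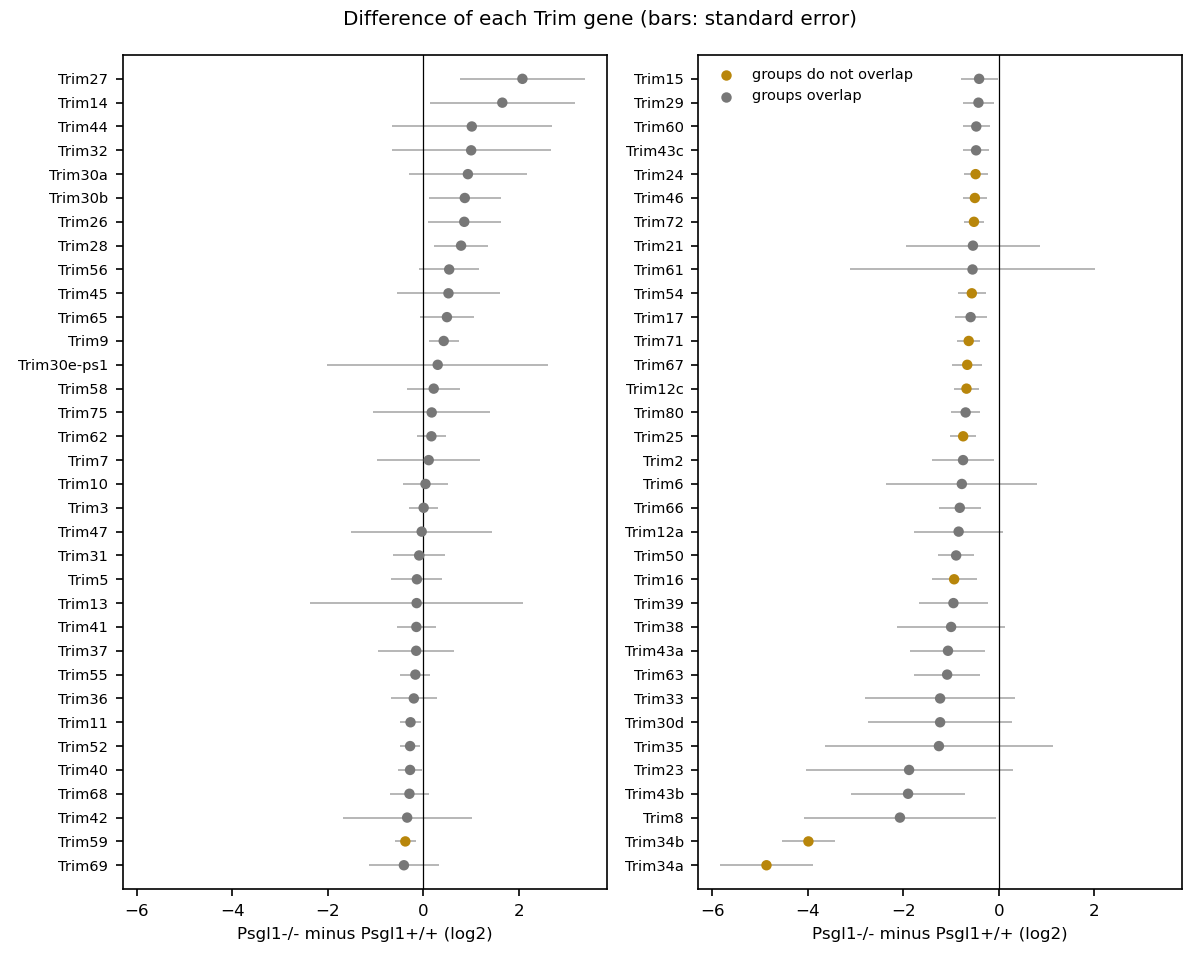
Difference of each of the 68 Trim genes, Psgl1-/- minus Psgl1+/+, on the log2 scale (horizontal axis), ordered from the most positive (top left) to the most negative (bottom right). Points are estimates, bars are standard errors (n = 4 per group), and gold marks genes whose groups do not overlap. Trim34a and Trim34b lie apart from the rest at -4.86 and -3.98, and the largest positive value is 2.07 for Trim27.

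Among the members that act in nucleic acid sensing and interferon signalling, 5 of 8 were higher and 3 lower in Psgl1-/- arrays, with a median of 0.33. Trim25, the ligase that activates the RNA sensor RIG-I, had 2 probes with opposite results. The probe with a RefSeq accession read 12.91, 13.33, 13.58 and 13.35 in Psgl1-/- arrays, against 11.15, 12.09, 12.70 and 10.48 in Psgl1+/+ arrays. Every Psgl1-/- array lay above every Psgl1+/+ array, with a difference of 1.69 (SE 0.50, n = 4 per group), which makes it the only tested Trim probe that was higher without overlap, where 0.66% of all tested probes were. It did not pass in limma's fit over all 51380 tested probes (adjusted p = 0.48), nor did any other Trim probe, where 0.0175% of all tested probes did.

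The second and brighter Trim25 probe, which stood for the gene in the fit over genes, lies at chr11:88874956-88881181 in the files' mm9 coordinates. It read 16.72, 16.91, 16.77 and 16.60 in Psgl1-/- arrays, against 17.46, 17.15, 17.34 and 18.04 in Psgl1+/+ arrays. Here every Psgl1-/- array lay below every Psgl1+/+ array, with a difference of -0.74 (SE 0.27, n = 4 per group). Most of this probe is a TG repeat. It is shown beside the probes of Trim71 and Trim12c, which carry shorter repeats, because probes with such repeats are set against all others next. Each is given as 30 bases around its repeat, on chromosomes 11, 9 and 7, with runs of at least 4 TG or GT units in capitals.
Trim25: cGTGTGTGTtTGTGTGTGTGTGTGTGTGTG
Trim71: agggtgtgcaTGTGTGTGTctctcattttt
Trim12c: ttatggagggGTGTGTGTGTattcttagtg
The Trim25 repeat probe shared 18 bases with probes of 32 other gene names on the same strand and of 26 on the opposite strand, and the other 2 shared none.

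Over the whole array, 678 of 60273 probes (1.12%) held TGTGTGTG or ACACACAC. Of the 668 that were tested, 55.2% were lower without overlap in Psgl1-/- arrays, where 9.93% of the other tested probes were. Their median difference was -0.62, against -0.32 for the other probes, and their median SD between arrays was 0.30, against 0.79. The Trim71 probe read 15.30, 15.42, 15.23 and 15.19 in Psgl1-/- arrays, against 15.84, 15.69, 15.79 and 16.34 in Psgl1+/+ arrays. Trim71, a repressor of mRNAs in stem cells, thus differed by -0.63 (SE 0.24, n = 4 per group), near the median of the repeat probes. A Trim26 probe with the repeat was above background on 4 of 8 arrays and differed by 0.08 (SE 1.74), with overlap.

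Trim12c read 13.83, 13.78, 13.37 and 13.78 on its repeat probe in Psgl1-/- arrays, against 14.29, 14.13, 14.27 and 14.78 in Psgl1+/+ arrays. These groups did not overlap, at a difference of -0.68, but its other probe read 12.04, 7.08, 4.15 and 11.28 in Psgl1-/- arrays, against 2.21, 9.11, 8.89 and 1.76 in Psgl1+/+ arrays, with overlap and a difference of 3.14 (SE 2.44). With all repeat probes left out, an alternative chosen after seeing the data, 9 of 67 tested Trim genes were lower without overlap, or 13.4% beside 10.1% of all genes. Trim25 was then at 1.69 and Trim12c at 3.14, and Trim71 had no probe left. What the repeat contributed to these 3 readings was not tested.

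**Figure D4:**
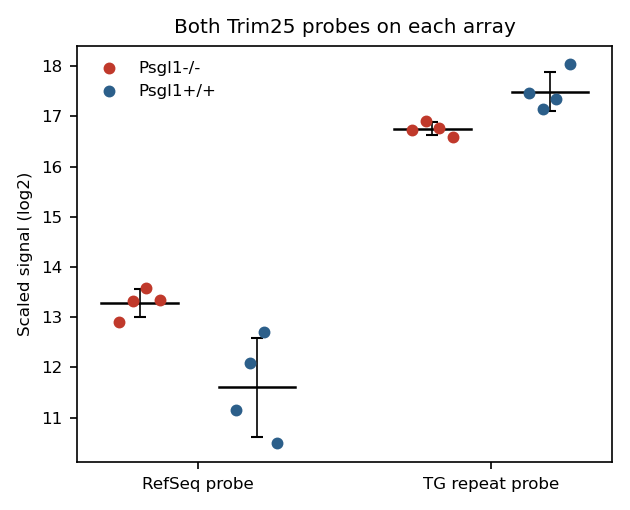
Scaled log2 signal (vertical axis) of both Trim25 probes on each array, with Psgl1-/- arrays left of Psgl1+/+ arrays. Points are arrays, bars are means and whiskers are SD (n = 4). The groups do not overlap on either probe, but Psgl1-/- is higher on the RefSeq probe and lower on the TG repeat probe.

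The other sensing members had overlapping groups. Trim14, which in human cells serves as an adaptor at the mitochondrial protein MAVS, read 11.92, 6.14, 4.79 and 4.91 in Psgl1-/- arrays, against 4.71, 5.30, 5.44 and 5.71 in Psgl1+/+ arrays. Replicate 5 alone was high, and the difference of 1.65 (SE 1.52) became -0.01 without it. Trim8, which promotes signalling from TNF and IL-1 receptors through the kinase TAK1, read 10.66, 2.91, 11.11 and 12.80 in Psgl1-/- arrays, against 12.34, 12.27, 10.84 and 10.29 in Psgl1+/+ arrays. Replicate 6 alone was low and was not well above background, and the difference of -2.07 (SE 2.01) became 0.08 without it.

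Trim21, the cytosolic antibody receptor, differed by -0.54 (SE 1.41), and by 0.51 without Psgl1+/+ replicate 2, where it read 11.36. Trim26, which limits interferon production by degrading IRF3, differed by 0.86 (SE 0.77). Trim56, a regulator of the DNA sensing adaptor STING, differed by 0.54 (SE 0.63) and Trim65, which ubiquitinates the RNA sensor MDA5, by 0.49 (SE 0.57). Trim62, which acts on the adaptor CARD9, was above background on 4 of 8 arrays and differed by 0.17 (SE 0.30).

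Among the members that restrain NF-kB, Toll-like receptor or inflammasome signalling, 1 of 9 was higher and 8 were lower in Psgl1-/- arrays, with a median of -0.28, close to that of all tested genes. Trim27, a repressor of NF-kB signalling that also acts in endosome sorting, was the most positive member. It read 6.33, 6.71, 12.54 and 7.82 in Psgl1-/- arrays, against 5.96, 7.00, 5.95 and 6.20 in Psgl1+/+ arrays. Replicate 7 alone was far higher, and the difference of 2.07 (SE 1.30) became 0.68 without it. Its second tested probe was also highest on replicate 7, at 11.37, with a difference of 2.36.

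Trim59 was lower without overlap, with 6.27, 6.31, 6.34 and 6.16 in Psgl1-/- arrays against 6.79, 6.43, 6.51 and 6.87 in Psgl1+/+ arrays. The difference was -0.38 (SE 0.22), whereas its other probe, above background on 4 of 8 arrays, gave 4.35 (SE 2.73). With normexp and quantile normalization, where the probe standing for each gene was chosen anew, the gene stood at 2.79. Trim38, which like Trim30a removes TAB2 and TAB3, differed by -0.997 (SE 1.14) and by 0.09 without Psgl1+/+ replicate 2, where it read 11.96. Trim39 differed by -0.95 (SE 0.72). The remaining members of this group, Trim11, Trim13, Trim29, Trim31 and Trim40, lay between -0.43 and -0.09 on the probe standing for each gene. The other Trim11 probes gave -1.79 (SE 1.70) and -2.16 (SE 1.72), and the other Trim40 probe gave 0.29 (SE 0.49), all with overlap.

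Of the nuclear corepressors, 1 of 4 was higher and 3 were lower. Trim28, the partner of KRAB zinc finger proteins in silencing retroelements, read 11.37, 11.18, 12.18 and 10.20 in Psgl1-/- arrays, against 9.54, 10.13, 11.65 and 10.45 in Psgl1+/+ arrays. The groups overlapped, with a difference of 0.79 (SE 0.57). Trim24, a nuclear receptor cofactor, was lower without overlap, at -0.48 (SE 0.25). This direction turned with the scaling, to 0.13 with quantile normalization, 0.13 with the authors' deposited values, 0.15 with normexp and quantile and 0.01 with cyclic loess. Its probe shared 18 bases with a probe of 1 other gene name. Trim33, a ligase in TGF-β signalling, differed by -1.23 (SE 1.56) with 14.98 on Psgl1+/+ replicate 4, and by 0.38 without it. Trim66 differed by -0.82 (SE 0.44).

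Of the NHL repeat proteins, 2 of 4 were higher and 2 lower. Besides Trim71, these were Trim2 at -0.75 (SE 0.64), Trim3 at 0.01 (SE 0.31) and Trim32 at 1.00 (SE 1.67). Trim32, a ligase whose loss causes muscle disease, read 11.55 on Psgl1-/- replicate 7, and its difference was -0.45 without it. Trim2 and Trim3 are neuronal ligases. The most divergent Trim3 probe read 8.75, 10.54, 11.10 and 10.94 in Psgl1-/- arrays, against 9.85, 12.84, 12.47 and 14.97 in Psgl1+/+ arrays, which overlapped on Psgl1+/+ replicate 1 only, at a difference of -2.20 (SE 1.06).

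Of the COS box proteins, which organise microtubules in neurons and other cells, 3 of 4 were lower. Trim67 read 5.73, 5.79, 4.62 and 5.62 in Psgl1-/- arrays, against 6.10, 6.20, 6.07 and 6.03 in Psgl1+/+ arrays, without overlap, at -0.66 (SE 0.32), or -0.39 without Psgl1-/- replicate 7. Trim46, which bundles microtubules at the start of the axon, was also lower without overlap, at -0.50 (SE 0.25), and Trim9 differed by 0.43 (SE 0.32). Trim36 differed by -0.20 (SE 0.48). Beside them, all 5 tested neuronal markers were above background on all 8 arrays, with a mean log2 signal per array of 12.36 to 12.99 in Psgl1-/- arrays and 12.56 to 13.05 in Psgl1+/+ arrays, and 2 of the 5 were lower without overlap, where 10.8% of all tested genes were. Their part in these values was not tested.

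All 4 striated muscle members were lower, with a median of -0.54. Trim72, which takes part in membrane repair, read 8.18, 8.29, 8.15 and 8.10 in Psgl1-/- arrays, against 8.73, 8.52, 8.60 and 8.94 in Psgl1+/+ arrays. The groups did not overlap, at -0.52 (SE 0.22). The difference was 0.01 with normexp and quantile normalization, where the probe standing for the gene was also chosen anew. The other Trim72 probe gave -0.23 (SE 0.94) with overlap. Trim54, a sarcomere ligase, was lower without overlap at -0.56 (SE 0.29). Its relative Trim63, a driver of muscle atrophy, overlapped, at -1.08 (SE 0.69), or -0.61 without Psgl1+/+ replicate 1. The brighter Trim55 probe overlapped too, at -0.17 (SE 0.31), while the second was lower without overlap, at -0.71 (SE 0.28). Of 6 striated muscle markers, 5 were above background on all 8 arrays, with a mean log2 signal per array of 8.54 to 9.25 in Psgl1-/- arrays and 8.09 to 8.86 in Psgl1+/+ arrays. Of these, the creatine kinase gene Ckm was lower without overlap, at -0.72, while the actin gene Acta1 differed by 1.39 with overlap, so the markers differed in both directions. Their part in the Trim values was not tested.

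Among 6 members of organelle, vesicle and autophagy pathways, 5 were lower. Trim16, which helps clear damaged lysosomes, read 7.52, 7.39, 6.91 and 6.53 in Psgl1-/- arrays, against 7.54, 7.70, 7.56 and 9.29 in Psgl1+/+ arrays. The groups were apart by a narrow margin, at -0.93 (SE 0.47), or -0.51 without Psgl1+/+ replicate 4. Trim50 differed by -0.89 (SE 0.37) with overlap, and its second probe by 0.18. Trim23, which carries an ARF GTPase domain, differed by -1.88 (SE 2.17), with arrays of both groups spread from 0.75 to 9.89. Trim45, Trim41 and Trim37 differed by 0.53, -0.15 and -0.15.

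The red cell members were Trim10, at 0.05 (SE 0.48), and Trim58, which acts in the loss of the nucleus from red cell precursors, at 0.22 (SE 0.55). All 5 tested red cell markers, Hbb-bs and Alas2 among them, were above background on all 8 arrays, with a mean log2 signal per array of 8.77 to 9.56 in Psgl1-/- arrays and 8.97 to 10.03 in Psgl1+/+ arrays. Their part was not tested.

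Of 9 members known from testis and the early embryo, 8 were lower, with a median of -0.47 and none without overlap. Trim43b, whose probe names Trim43a, Trim43b and Trim43c, read 5.09, 4.80, 4.37 and 4.65 in Psgl1-/- arrays, against 10.52, 5.03, 5.10 and 5.84 in Psgl1+/+ arrays. Replicate 1 alone was high, and the difference of -1.90 (SE 1.19) became -0.60 without it. Trim43a differed by -1.06 (SE 0.78) and by -0.28 without that array, Trim43c by -0.47 (SE 0.27) and Trim80 by -0.69 (SE 0.30). The others were Trim61 at -0.55, Trim60 at -0.47, Trim69 at -0.41, Trim42 at -0.34 and Trim75 at 0.18. Of the 8 remaining members, which have no role assigned here, 2 were higher and 6 lower, with a median of -0.28. Trim35 differed by -1.25 (SE 2.38) and by 0.78 without Psgl1-/- replicate 5, where it read 2.90. Trim44, which lacks a RING finger, differed by 1.01 (SE 1.68) and by 2.56 without Psgl1+/+ replicate 3, where it read 11.93. Trim7, which binds the glycogen primer glycogenin, had 3 tested probes, and the brightest differed by 0.11 (SE 1.08), or by -0.90 without Psgl1-/- replicate 8. Its other probes gave -1.17 (SE 0.59) with overlap and -0.67 (SE 0.30), lower without overlap. Trim17, Trim15, Trim68, Trim52 and Trim47 differed by -0.59, -0.41, -0.29, -0.28 and -0.03.

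Probes of the same gene often disagreed. Of 98 tested Trim probes, 34 were positive and 64 negative, 14 were lower without overlap, where 10.5% of all tested probes were, and 1 was higher. Among the 23 genes with several tested probes, 9 had probes of the same sign and 14 had both signs, and the most distant probes of a gene were typically 1.07 apart (median gap, log2). The widest gap was 4.73, for Trim59, followed by Trim30d at 4.48 and Trim12c at 3.82. For Trim27, Trim62, Trim72 and Trim65 the gap was at most 0.35.

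**Figure D5:**
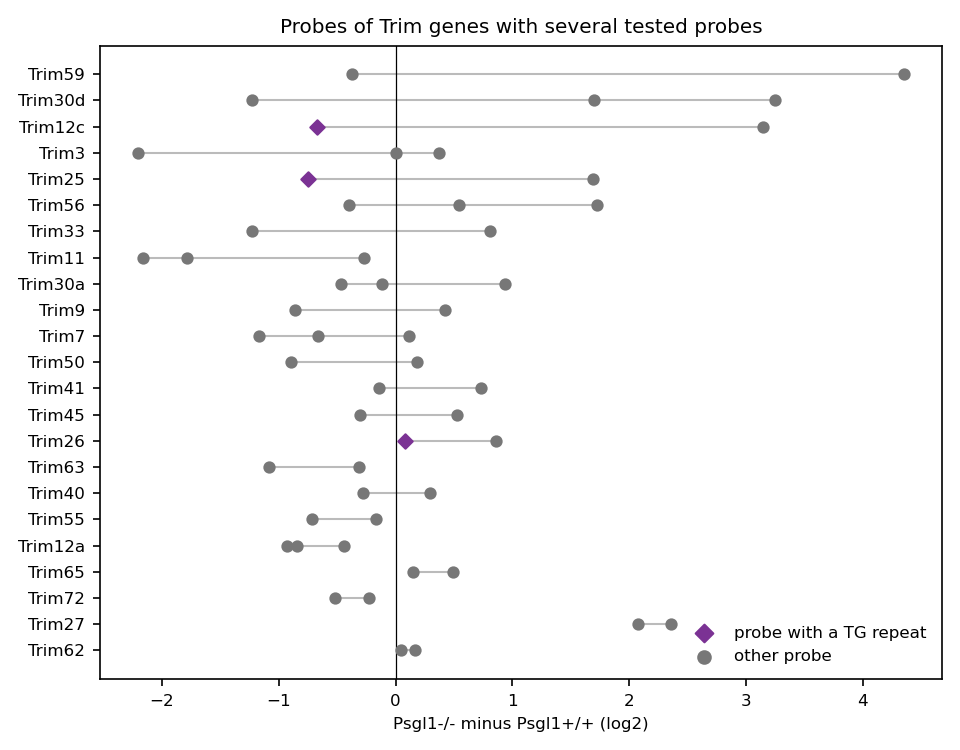
Difference of each tested probe, Psgl1-/- minus Psgl1+/+, on the log2 scale (horizontal axis), for the 23 Trim genes with several tested probes, ordered by the gap between the most distant probes. Grey circles are probes without a TG repeat and purple diamonds are probes with one. For 14 genes the probes lie on both sides of 0.

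Interferon-responsive genes often carry an interferon-stimulated response element before their start. The letters GAAANNGAAA were searched on both strands in RefSeq promoter windows (assembly GRCm38.p6) from 250 bases before to 50 after each start. Of the 68 members, 52 had a window, and 9 of these had a match, which fell in 15.2% of the family's 66 windows and in 3.44% of all 32851 windows. The 9 genes were Trim2, Trim21, Trim26, Trim34a, Trim5, Trim12a, Trim12c, Trim30a and Trim30d, so 6 of the 9 cluster genes with a window held a match. For cluster genes, 30 bases around the match are shown on the gene's own strand, with the match in capitals, which reads TTTCNNTTTC there. Trim34a is on the plus strand (chr7:104244457-104244486), and the minus strand holds Trim5 (chr7:104288136-104288165), Trim12c (chr7:104353359-104353388) and Trim30d (chr7:104507871-104507900).
Trim34a: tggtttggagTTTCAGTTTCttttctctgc
Trim5: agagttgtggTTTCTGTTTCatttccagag
Trim12c: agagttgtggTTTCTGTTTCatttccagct
Trim30d: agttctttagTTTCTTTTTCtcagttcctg
The stretch of Trim12a was identical to that of Trim5 over all 30 bases, and Trim12c had 28 of the 30. Trim30a had a stretch identical to that of Trim30d. Trim34a had 18 of 30 bases in common with Trim5. The differences of these genes were -4.86 for Trim34a, -0.13 for Trim5, -0.68 for Trim12c, -1.23 for Trim30d and 0.93 for Trim30a. Of the 9 genes with a match, 2 were higher and 7 lower in Psgl1-/- arrays, with a median of -0.68. The match lay after the start for Trim34a, Trim12a, Trim21, Trim2 and a Trim30a window. It lay before the start for Trim5, Trim12c, Trim30d, Trim26 and the other Trim30a window. A match describes these letters only.

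Of 46 genes of the pathways that Trim proteins act on, 44 were tested, 24 were higher and 20 lower in Psgl1-/- arrays, and the median was 0.15. None passed an adjusted p of 0.05 in limma, while the unadjusted limma p was under 0.05 for 3 with a positive and 1 with a negative difference, where it was for 1.62% and 9.21% of all tested genes. The 3 positive ones also had groups that did not overlap, where 0.648% of all tested genes were higher without overlap. Only Tab2 was lower without overlap, where 10.8% of all tested genes were. Ddx58, which encodes the RNA sensor RIG-I that Trim25 modifies, read 8.91, 8.56, 10.89 and 10.92 in Psgl1-/- arrays, against 8.26, 8.17, 7.78 and 8.03 in Psgl1+/+ arrays. The Psgl1-/- arrays were higher, by 1.76 (SE 0.60), with replicates 7 and 8 well above the rest.

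Ube2w, a ubiquitin-conjugating enzyme that works with Trim5 and Trim21, read 10.50, 12.81, 12.23 and 10.53 in Psgl1-/- arrays, against 6.66, 6.32, 6.53 and 10.19 in Psgl1+/+ arrays. The groups did not overlap, at 4.09 (SE 0.99), with Psgl1+/+ replicate 4 close to the Psgl1-/- arrays. Ikbkg, the NEMO subunit of the IKK complex, read 6.15, 8.94, 12.39 and 6.69 in Psgl1-/- arrays, against 4.47, 4.22, 5.91 and 5.04 in Psgl1+/+ arrays, at 3.63 (SE 1.31). Tab2, a target of Trim30a and Trim38, differed by -0.53 (SE 0.23), and the interferon receptor kinase Tyk2 differed by -0.68 (SE 0.29) with overlap.

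Among 9 genes that share the Trim architecture or its B30.2 domain under other symbols, 2 were higher and 7 lower, with a median of -0.48. Btn2a2, a butyrophilin, read 6.94, 7.00, 6.50 and 6.56 in Psgl1-/- arrays, against 7.42, 7.93, 7.51 and 7.74 in Psgl1+/+ arrays. The groups did not overlap, at -0.90 (SE 0.25). Mid1, a microtubule-bound ligase, and Fsd1l were also lower without overlap, at -0.51 (SE 0.23) and -0.42 (SE 0.23), which made 3 of 9 beside 10.8% of all tested genes, and Fsd2 differed by -1.49 (SE 0.62) with overlap. Mefv, which encodes the inflammasome protein pyrin, differed by 2.65.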

How the data were processed

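Total RNA of 8 samples was labelled with cyanine 3 using random primers and a low-input kit, per the labels' protocols. Each was hybridised to 1 Agilent array, and all 8 arrays lay on 1 slide. Deposited scanner files hold the processed signal, an intensity corrected for background within each array by Feature Extraction 11.5.1.1, with mm9 coordinates per the file headers. A table of normalized intensity values that the authors deposited served as an alternative.

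Outlier spots were dropped and log2 signals were set to the same 75th percentile. Probes were named through RefSeq accessions or symbols. Of the Trim probes, 85 were named by accession and 20 by symbol. The probe with the highest mean stood for a gene and was kept when at least 4 of the 8 arrays had it well above background. Under each alternative scaling, and with the deposited values, that probe was chosen anew. limma 3.58.1 (R 4.3.3) was fitted to all tested genes with Benjamini-Hochberg adjustment, checked on simulated data. All 4 arrays per group entered. "Without overlap" means that every array of a group lay beyond every array of the other.

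Named genes were Trim34b and members whose probe names several Trim genes, the 8 most positive and 8 most negative, members without overlap or with several tested probes, and those with the smallest p in each list. Others are named to account for the lists. The members and lists were chosen with earlier results of these data known. Promoters and gene order came from RefSeq (GRCm38.p6). Arrays, not read depth, limit precision.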

Additional observations from a re-analysis of the deposited data

Results flagged for a closer look

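Single arrays stood far from the other 3 of their group in 16 of 136 comparisons of a gene with a group, or 11.8% (Dixon's limit on the gap to the nearest array, which chance passes in about 1 in 20 groups). On the log2 scale, 9 were high and 7 low. Psgl1-/- replicate 5 was low for Trim35 (2.90) and Trim61 (1.93), and replicate 6 was low for Trim34a (4.92, others 8.52 to 8.95). Psgl1-/- replicate 7 was low for Trim12c (13.37), Trim29 (6.99) and Trim67 (4.62), and replicate 8 was high for Trim38 (9.57) and Trim42 (9.65). Psgl1+/+ replicate 4 was high for Trim13 (11.42), Trim16 (9.29), Trim33 (14.98), Trim36 (8.94) and Trim42 (10.11). Psgl1+/+ replicate 1 was high for Trim43b (10.52), replicate 3 was high for Trim44 (11.93), and replicate 2 was low for Trim45 (4.09).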

How the results depend on the processing

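Trim34a and Trim34b stayed lower in Psgl1-/- arrays under all 20 alternatives, at -5.25 to -3.91 and -4.29 to -3.66. Neither passed, with adjusted p of 0.204 to 0.715 and 0.168 to 0.511 over all settings, and no other Trim or pathway gene did. The count of Trim genes lower without overlap was 12 in the main analysis (17.6% beside 10.8% of all genes). It was 12 with probes above background on 8 arrays (23.1% beside 11.7%) and 11 with RefSeq accessions only (16.9% beside 9.83%). The mean over probes gave 8 (11.8% beside 10.2%) and array median scaling 7 (10.3% beside 6.19%). Quantile normalization gave 5 (7.35% beside 5.31%), as did the deposited value table (7.35% beside 5.21%). Cyclic loess gave 3 (4.41% beside 2.56%). Normexp and quantile gave 2 (2.94% beside 5.15%), which were Trim34a and Trim34b. Leaving out arrays gave 12 to 17, the highest without Psgl1-/- replicate 5, where 16.6% of all genes were; over all 8 omissions that share was 12.2% to 17.0%, since 3 arrays against 4 separate more easily. The count over all genes, 1 in the main analysis, was 12 with RefSeq accessions only, 7 with probes above background on 8 arrays, 5 with the mean over probes, 4 with cyclic loess and 2 with the slide row as a block, and 0 to 10 when arrays were left out. The family's median difference ranged from -0.48 without Psgl1+/+ replicate 3 to -0.06 with cyclic loess, and the cause was not tested. Up to 11 of the members' differences changed sign under an alternative. No paired analysis was possible because the labels number Psgl1-/- arrays 5 to 8 and Psgl1+/+ arrays 1 to 4, so the groups share no numbers.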
